A study of Mus musculus with 4 samples.

Results

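Capillary-like blood vascular endothelial cells (BECs) of mouse ear skin were described from 168 wells, which were chosen by their reads of 24 marker genes from 631 wells kept of 1536. CD31+/CD45-/Lyve1- cells were sorted by FACS from dissociated ear dermis of adult wild-type female C57Bl/6 mice (C57BL/6 J in the study's methods). The mice were aged 12 to 26 weeks per the labels (the study's methods give another range), and no other genotype, treatment or tissue was included. Each of 2 replicates was a pool of cells from 6 mice, sorted into plate A and plate B of 384 wells and sequenced by Smart-seq2 as single 50-bp reads without molecular identifiers. The mice of a pool cannot be told apart, so the replicate, and not the well, was the unit of comparison, and the spread between replicates may be technical as well as biological. Plates are named 1A, 1B, 2A and 2B by replicate and plate.

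Dermal capillaries are the narrow vessels between arterioles and venules, with a single layer of endothelium, a shared basement membrane and a partial cover of pericytes. Their endothelium takes up lipids and other small solutes for the tissue, through lipoprotein lipase held at the luminal surface, fatty acid transporters, water and glycerol channels and caveolae. Leakage and leukocyte adhesion in inflamed skin are known mainly from the venules that follow them, whereas arterioles carry the tighter junctions.

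A well received an artery, a capillary and a vein score, each the mean over 8 markers of the standardised log2 level within its replicate, and was called capillary-like when the capillary score was the highest by at least 0.25. The capillary markers were *Gpihbp1*, *Rgcc*, *Cd36*, *Cd300lg*, *Timp4*, *Aqp7*, *Btnl9* and *Car4*. By the same rule 121 wells were artery-like and 135 vein-like, and 207 wells were in no class. Capillary-like wells were 26.6% of all kept wells (exact binomial 95% interval 23.2% to 30.3%), with 35.3% in replicate 1 (30.2% to 40.7%) and 16.7% in replicate 2 (12.6% to 21.4%). These intervals cover counting error only. The plates of a replicate were close, with 57 of 156 and 62 of 181 kept wells in replicate 1 and 22 of 144 and 27 of 150 in replicate 2, and the SD between the replicates was 13.2 percentage points.

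The capillary score of the 168 wells had a median of 0.60 and ran from −0.15 to 2.71, and the median margin over the next score was 0.63. The artery score was the second score in 101 wells and the vein score in 67. The cut runs through a continuous range. The 3 wells just inside it had margins of 0.259, 0.259 and 0.260, and the 3 nearest outside it had 0.245, 0.2495 and just under 0.25. Of the 168 wells, 49 had a margin under 0.5, and 81 further wells had the capillary score on top by less than 0.25. The class is therefore a range of scores and not a separated population, as the plot of capillary score against the higher of the other scores shows.

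**Figure D1:**
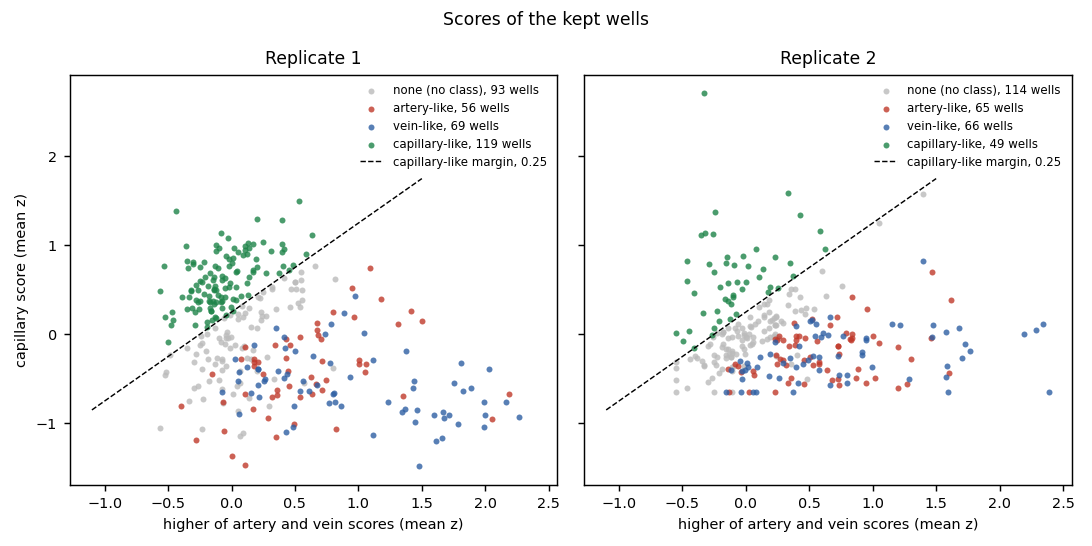
Capillary score of each kept well (vertical axis, mean z) against the higher of its artery and vein scores (horizontal axis, mean z), with wells coloured by class and the dashed line marking the margin of 0.25. The 168 capillary-like wells lie above the line and run without a gap into the wells in no class.

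Capillary-like wells of replicate 1 held a median of 135800 reads on genes (35665 to 429132) and those of replicate 2 a median of 148200 (26098 to 569668). When each well was thinned to 20000 reads, a median of 2352 genes was read in replicate 1 and 1771 in replicate 2. The replicates also differed in how many wells held any read of some genes of other cells. *Kcnj8* and *Pdgfrb*, pericyte genes that each kept well had to hold below 100 CPM (counts of a gene scaled to an equal total of gene reads per well), were read in 92.4% to 98.3% of the wells of each class in replicate 1 and in 16.7% to 33.9% in replicate 2. The lymphatic gene *Lyve1* went the other way, with a read in 1.79% to 5.04% of the wells of each class in replicate 1 and in 36.7% to 46.2% in replicate 2. Where these reads came from was not tested.

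Of the capillary markers, *Gpihbp1* encodes the protein that carries lipoprotein lipase to the capillary lumen, and *Cd36* encodes a fatty acid transporter. The levels below are CPM of the summed reads of a plate's capillary-like wells after TMM scaling, and because these genes chose the wells they are a description without a test. *Gpihbp1* stood at 2079 CPM on plate 1A, 2317 on 1B, 772 on 2A and 483 on 2B, against 178 to 1000 in the artery-like and 80.6 to 640 in the vein-like plate sums. *Cd36* stood at 5638, 5605, 1129 and 716 CPM on the same plates, against 234 to 2383 in the artery-like and 76.3 to 1222 in the vein-like sums. Both genes were far higher in replicate 1 than in replicate 2 in all 3 classes, so their ranges over all plates overlapped although the capillary-like sum was the highest within each plate.

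*Cd300lg*, which encodes a mucin-like receptor of capillary and venular endothelium, differed less between the replicates than *Gpihbp1* and *Cd36* did, at 2399, 2286, 1372 and 1827 CPM. Its artery-like plate sums were 359 to 1338 CPM and its vein-like sums 727 to 1142 CPM, so that the capillary-like plates did not overlap either class. *Rgcc*, a regulator of the cell cycle, stood at 1072, 1167, 206 and 249 CPM. *Timp4*, an inhibitor of metalloproteinases, stood at 1706, 1929, 377 and 59.3 CPM, with the lowest value on plate 2B below the artery-like sum of that plate, 84.7 CPM.

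The remaining 3 markers were unevenly spread over wells. *Aqp7*, a channel for water and glycerol, stood at 818, 960, 113 and 118 CPM, but 63.7% of its reads in replicate 2 came from a single well, and the level of that replicate without this well was 44.8 CPM. *Btnl9*, a butyrophilin-like gene, stood at 74.1, 207, 261 and 88.5 CPM, with 45.1% of the reads of replicate 2 in 1 well. *Car4*, a carbonic anhydrase tethered to the luminal surface, stood at 254, 305, 39.7 and 56.7 CPM and at no more than 7.29 CPM in any artery-like or vein-like plate sum. In replicate 2, 71.3% of the *Car4* reads came from 1 well, and 16.4 CPM were left without it.

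**Figure D2:**
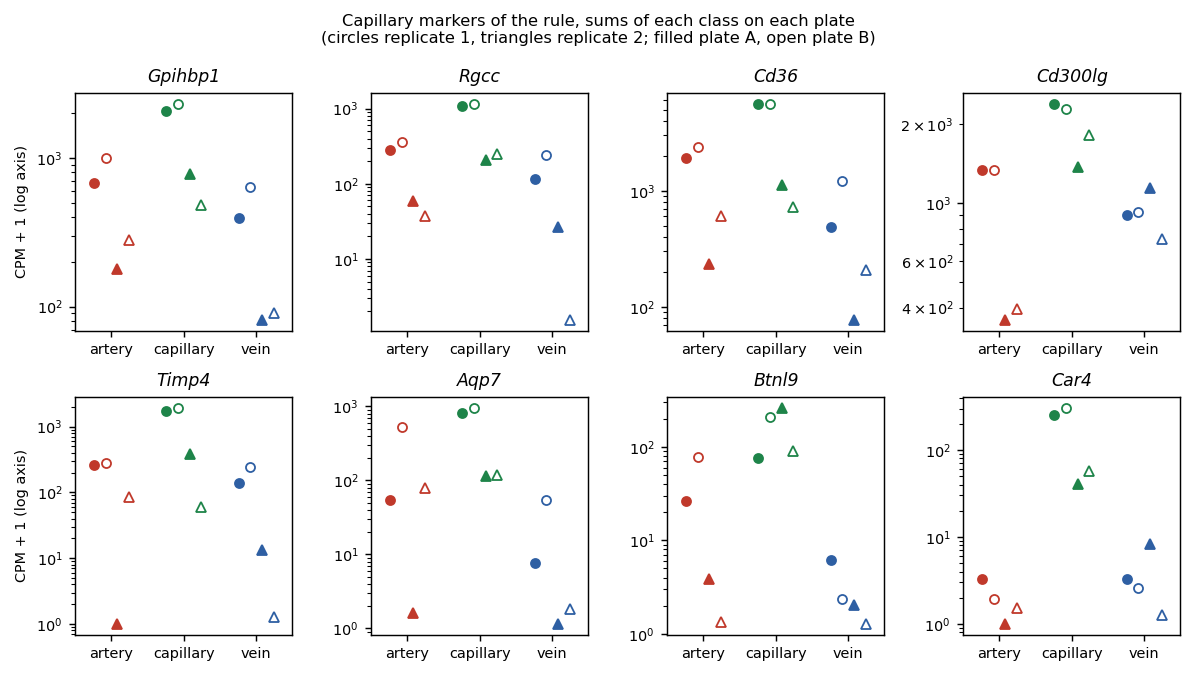
Level of the 8 capillary markers in each plate sum (vertical axis, CPM + 1 on a log axis) for the artery-like, capillary-like and vein-like wells, with replicates shown by symbol. The markers chose the wells, and *Cd300lg* and *Car4* are the 2 whose capillary-like plates lie above every other plate.

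Counted by well, the markers at 100 CPM or more separated the replicates. *Gpihbp1* reached that level in 118 of 119 capillary-like wells of replicate 1 and in 36 of 49 of replicate 2, *Cd36* in 119 and 27, *Cd300lg* in 116 and 38, and *Rgcc* in 114 and 23. *Timp4* reached it in 106 and 13 wells, *Aqp7* in 93 and 4, *Car4* in 42 and 3, and *Btnl9* in 27 and 7. A capillary-like well of replicate 1 held a median of 6 of the 8 markers at this level (4 to 8), and a well of replicate 2 a median of 3 (0 to 7). The medians of artery-like wells were 4 and 1 and those of vein-like wells 3 and 1, so the well of replicate 2 carried fewer markers than an artery-like well of replicate 1.

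**Figure D3:**
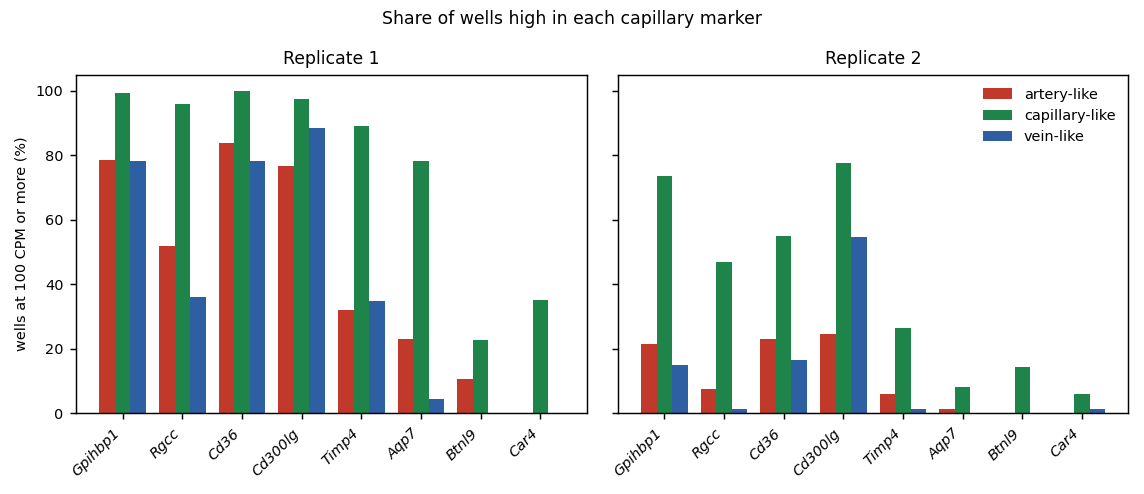
Percentage of wells with at least 100 CPM (vertical axis) of each of the 8 capillary markers, by class and replicate. In replicate 1 the first 6 markers pass this level in most wells of the capillary-like class, and in replicate 2 *Timp4*, *Aqp7*, *Btnl9* and *Car4* do so in 13, 4, 7 and 3 of 49 wells.

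At an equal 20000 reads per well, *Gpihbp1* was read in 99.2% of capillary-like wells of replicate 1 and 81.6% of replicate 2, against 82.1% and 27.7% of artery-like and 87.0% and 22.7% of vein-like wells. The unthinned share in capillary-like wells of replicate 2 was 85.7%. *Aqp7* was read in 83.2% and 14.3% of thinned capillary-like wells and *Car4* in 40.3% and 8.16%. For *Car4* the artery-like wells gave 3.57% and 1.54% and the vein-like wells 7.25% and 1.52%, at median depths of 134200 and 115400 reads in artery-like and 186900 and 133500 reads in vein-like wells. *Aqp7* and *Car4* were both at 100 CPM or more in 35 wells of replicate 1 and in 0 of replicate 2.

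Where each marker was left out of the score and the wells were chosen again, 5 of the 8 capillary markers were highest in the capillary-like wells of both replicates. The ratio to the next class was 2.17 and 1.99 for *Gpihbp1*, 2.80 and 1.60 for *Rgcc*, 1.52 and 1.47 for *Cd300lg*, 4.86 and 1.59 for *Timp4*, and 2.25 in replicate 1 for *Cd36*, whose levels in replicate 2 were 728 CPM in capillary-like and 610 CPM in artery-like wells. *Aqp7*, *Btnl9* and *Car4* were highest in capillary-like wells in replicate 1 alone. In replicate 2, *Aqp7* stood at 35.6 CPM in capillary-like and 69.3 CPM in artery-like wells, *Btnl9* at 6.60 and 127 CPM, and *Car4* at 14.2 and 32.4 CPM. With all 8 markers in the score, the artery-like sums of these genes in replicate 2 were 50.5, 1.21 and 0.33 CPM. The reversals thus depend on which wells were chosen. For comparison, 7 of 8 artery markers and 8 of 8 vein markers were highest in their own class in both replicates. The name capillary-like thus rests on 5 markers in replicate 2.

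The promoters of the capillary markers were read to show the sequence at the starts of the genes that define the class. RefSeq's table for GRCm38.p6 matched 6 of the 8 markers, and 4 promoters are given as the 250 bases before the start, 5′ to 3′ on the strand of the gene. Capitals mark the letters of a motif searched on both strands, and the motifs were the nuclear receptor motif AGGTCA, the GC box GGGCGG, the ETS motif CCGGAA, the forkhead motif TGTTTAC, the GATA motif AGATAA and the AP-1 motif TGACTCA.
Rgcc (chr14:79301636-79301885, minus strand): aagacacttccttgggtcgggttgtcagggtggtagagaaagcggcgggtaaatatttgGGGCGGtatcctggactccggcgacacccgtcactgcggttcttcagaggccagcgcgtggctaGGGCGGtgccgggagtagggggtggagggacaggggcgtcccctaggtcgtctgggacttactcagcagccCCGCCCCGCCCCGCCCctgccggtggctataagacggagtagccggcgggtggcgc
Cd36 (chr5:17835897-17836146, minus strand): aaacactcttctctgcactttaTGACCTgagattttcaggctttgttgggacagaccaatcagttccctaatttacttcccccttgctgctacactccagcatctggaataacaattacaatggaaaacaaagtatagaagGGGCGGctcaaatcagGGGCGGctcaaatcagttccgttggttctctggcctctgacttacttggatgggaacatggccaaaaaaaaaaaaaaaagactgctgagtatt
Aqp7 (chr4:41048137-41048386, minus strand): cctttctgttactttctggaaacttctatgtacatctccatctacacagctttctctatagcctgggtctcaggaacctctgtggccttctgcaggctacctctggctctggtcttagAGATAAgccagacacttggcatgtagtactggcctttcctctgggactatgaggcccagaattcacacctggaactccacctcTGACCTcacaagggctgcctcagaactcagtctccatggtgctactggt
Car4 (chr11:84957504-84957753, plus strand): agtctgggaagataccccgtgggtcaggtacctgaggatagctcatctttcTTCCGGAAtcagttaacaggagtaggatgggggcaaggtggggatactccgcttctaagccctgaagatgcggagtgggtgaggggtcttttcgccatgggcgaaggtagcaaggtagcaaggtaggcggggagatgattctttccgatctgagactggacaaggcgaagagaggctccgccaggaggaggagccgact
The *Rgcc* promoter held 5 GC boxes, that of *Cd36* 1 nuclear receptor motif and 2 GC boxes, that of *Aqp7* shown here 1 nuclear receptor motif and 1 GATA motif, and that of *Car4* the ETS motif on both strands at overlapping positions. The table gives a second start of *Aqp7* (chr4:41047963-41048212), whose promoter held 2 nuclear receptor motifs and no GATA motif. Those of *Timp4* and *Btnl9* held none of the 6 motifs. Of 32851 promoters in the table, 14.0% held the nuclear receptor motif, 32.7% the GC box, 12.0% the ETS motif, 3.17% the forkhead motif, 9.99% the GATA motif and 4.46% the AP-1 motif. No motif was present in all 6 promoters, and a match describes letters only.

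To ask which further genes set capillary-like BECs apart, reads were summed by class and replicate and 15142 genes were compared in 6 sums with edgeR. The classes were made from the same wells, so these comparisons describe the classes and are not independent of their choice. No gene passed an adjusted p of 0.05 (Benjamini-Hochberg) for capillary-like wells set against both other classes averaged, against artery-like wells or against vein-like wells (0 of 15142, 0%, in each). At an unadjusted p under 0.05 there were 713, 786 and 691 genes, and DESeq2's Wald test called 295, 343 and 318. The lowest adjusted p values in edgeR were 0.358, 0.183 and 0.184. With 2 residual degrees of freedom and a median dispersion of 0.672, the values of single genes below are given as levels and not as changes.

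A plain description of separation was added after these tests had made no call, namely that all 4 capillary-like plate sums lay above, or all below, every plate sum of the compared class. Against both other classes 40 genes lay above (0.264%) and 30 below (0.198%). Against artery-like wells 289 lay above (1.91%) and 218 below (1.44%), and against vein-like wells 256 lay above (1.69%) and 328 below (2.17%). Plate sums in random order would also separate some genes, and these counts were not set against that number. Separation alone therefore does not mark a gene as particular to the class. Of the 40 genes above both classes, 3 had been used to choose wells (*Cdh5*, *Cd300lg* and *Car4*), as had 1 of the 30 below (*Fbln5*).

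Of the genes that handle lipids, *Lpl*, which encodes the lipoprotein lipase that Gpihbp1 binds, stood at 389 CPM on plate 1A, 316 on 1B, 3.44 on 2A and 49.6 on 2B of the capillary-like wells. Artery-like sums were 6.60 to 35.1 CPM and vein-like sums 4.81 to 43.9 CPM. Plate 2A was below every other plate sum, and the level in replicate 2 rested on 1 well with 85.8% of the reads. The log2 difference from the mean of the other classes was 3.08 ± 0.51 (SE, adjusted p = 0.949). In replicate 1, 39 of 119 capillary-like wells held at least 100 CPM of *Lpl*, and in replicate 2, 2 of 49.

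Of 34 tested genes for fatty acids and lipoproteins, 24 were higher than the mean of the other classes (median log2 difference 0.48, against 0.05 over all genes), 23 were higher than in artery-like wells (0.69 against 0.05) and 15 higher than in vein-like wells (−0.08 against 0.01). None passed the test. Without replicate 2 the median was 0.26 against artery-like and 0.27 against vein-like wells, and without replicate 1 it was 0.70 and −0.02. *Fabp4*, a fatty acid binding protein, stood at 3344, 3794, 822 and 439 CPM, against 232 to 1502 in artery-like and 1121 to 1935 in vein-like plate sums, so that replicate 2 lay below all vein-like plates. *Slc27a3*, an acyl-CoA synthetase of the fatty acid transport family, stood at 1.60, 10.6, 9.38 and 9.22 CPM, below all vein-like plates (53.4 to 138 CPM). *Pparg*, the transcription factor that drives many of these genes, stood at 201 and 68.3 CPM in the replicates, against 65.9 and 60.1 CPM in artery-like and 63.0 and 43.9 CPM in vein-like wells.

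As a check for reads of fat cells, *Adipoq*, their secreted hormone, was at 0 in all capillary-like wells of both replicates, and the 10 adipocyte markers summed to a median of 9.09 CPM per well in replicate 1 and 0 in replicate 2, with 6 and 1 wells over 1000 CPM. The other 9 markers were read in replicate 1, led by *Lipe*, *Cidec* and *Cfd*, and 5 of the 10 were read in replicate 2. The mean sum was 217 and 68.1 CPM in capillary-like wells, against 35.2 and 55.7 CPM in artery-like and 66.0 and 142 CPM in vein-like wells, so that it was higher than in both other classes in replicate 1 alone. The part of these reads in the levels above was not tested.

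For water and glycerol transport, *Aqp1*, the water channel of continuous endothelium, stood at 4146, 4211, 1438 and 1278 CPM. Every capillary-like plate of a replicate was above the artery-like plates of that replicate (721 and 1561 CPM in replicate 1, 400 and 632 in replicate 2). The vein-like plates, at 2373 to 2649 CPM, lay between the capillary-like plates of the replicates. Of 12 tested channels and exchangers, 8 were higher than in artery-like wells (median 1.39) and 6 higher than in vein-like wells (−0.01). Against artery-like wells the median was 0.26 without replicate 1 and 1.82 without replicate 2, and against vein-like wells it was 0.25 and 0.68.

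Among genes of caveolae, the flask-shaped pits of capillary endothelium, *Cav1*, the main coat protein, stood at 6013, 5740, 2942 and 2911 CPM. All 4 plates were above the vein-like plates (1515 to 2829 CPM), and they overlapped the artery-like plates (2566 to 4617 CPM). The log2 difference from vein-like wells was 0.96 ± 0.17 (SE, adjusted p = 0.649). *Cavin2*, which shapes the pits, stood at 2211, 2368, 496 and 925 CPM against 247 to 744 in vein-like sums, a difference of 1.504 ± 0.26 (adjusted p = 0.637), with plate 2A inside the vein-like range. *Plvap*, the protein of endothelial diaphragms, was ordered differently in the replicates. It stood at 1385 and 1398 CPM on the plates of replicate 1 and at 4079 and 2717 CPM on those of replicate 2, against 917 to 2876 CPM in artery-like and 3973 to 4421 CPM in vein-like sums. Of 12 tested genes of caveolae and diaphragms, 10 were higher than the mean of the other classes (median 0.48), and 11 and 7 were higher than in artery-like and vein-like wells. Without replicate 1, 6 of 11 were higher than in artery-like wells (0.05). Without replicate 2, 7 of 12 were higher than the mean (0.67), and the median against vein-like wells was 0.59, compared with 0.20 with both replicates. On the plates of replicate 1 alone, which are plates of a single pool, edgeR called 3 of the 12 against the mean and 5 against vein-like wells. Over all genes it called 32 and 46 of 13426. Other lists had calls there too, with 2 and 5 of 21 vein genes and 3 and 3 of 23 artery genes that the rule did not use.

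The tight junction gene *Cldn5*, on which the study centres, took an intermediate level in capillary-like wells. It stood at 1202, 1143, 1712 and 1033 CPM, below all artery-like plates (1905 to 2826 CPM) and above all vein-like plates (462 to 581 CPM). The log2 difference was −0.98 ± 0.22 from artery-like wells (adjusted p = 0.915) and 1.22 ± 0.22 from vein-like wells (adjusted p = 0.702). At least 100 CPM were held by 94 of 119 and 31 of 49 capillary-like wells, and the median capillary-like well held 800 and 543 CPM, with quartiles of 143 and 1795 CPM in replicate 1 and 50.1 and 2065 CPM in replicate 2. The middle range of the wells thus reached below the vein-like sums and stayed below the artery-like sum of the same replicate.

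Of 27 tested junction genes, 19 were higher than the mean of the other classes (median 0.33), 17 higher than in artery-like and 19 higher than in vein-like wells, and none passed the test. The excess rested on replicate 1, since without it 13 of 26 were higher than the mean (0.03) and 12 of 26 higher than in vein-like wells (−0.05). *Jup*, the catenin plakoglobin of adherens junctions, stood at 904, 886, 340 and 356 CPM, above all vein-like plates (54.4 to 236 CPM) and overlapping the artery-like ones (137 to 474 CPM). *Esam* and *F11r*, adhesion molecules of the tight junction, varied less. *Esam* stood at 2091 and 1524 CPM in the replicates, against 2014 and 1394 in artery-like and 1672 and 1680 in vein-like wells. *F11r* stood at 925 and 955 CPM, against 833 and 580 in artery-like and 733 and 656 in vein-like wells. *Ocln* was at 0 in the sums of all 3 classes.

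Of 21 tested receptors for mediators of permeability, 7 were higher than the mean of the other classes (median −0.15). The direction turned between the replicates, with 10 of 19 higher without replicate 2 (0.32) and 5 of 15 without replicate 1 (−0.25). *Hrh1*, the histamine receptor that opens venules, stood at 3.74 CPM in replicate 1 and 0 in replicate 2, against 32.6 and 19.4 CPM in vein-like and 6.12 and 0 CPM in artery-like wells. *Hrh2*, another histamine receptor, was at 0 in all 6 sums. The plates of *Ace*, the angiotensin-converting enzyme, lay at 112, 114, 106 and 91.1 CPM, below all plates of both classes (135 to 302 CPM).

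Genes of growth factor response, sprouting and the basement membrane are described together, as they serve the growth and the wall of capillaries. *Nrp1*, a coreceptor for VEGF, stood at 1392, 1294, 430 and 415 CPM, against 584 and 697 CPM in artery-like and 304 and 438 CPM in vein-like plates of replicate 1 and 128 to 525 CPM in those of replicate 2. The plates of replicate 1 were separated and those of replicate 2 were not. *Esm1*, a proteoglycan of sprouting endothelium, stood at 281, 402, 1.88 and 48.5 CPM, against 0.169 to 103 CPM in artery-like and 0.830 to 38.1 CPM in vein-like sums. Of 18 genes of sprouting, 13 were higher than the mean of the other classes (median 0.91), as were 14 of 19 genes of the basement membrane (0.57). Both medians kept their sign with either replicate left out, at 0.57 and 0.82 for sprouting and at 0.52 and 0.46 for the basement membrane without replicate 2 and without replicate 1. These lists share *Col4a1*, *Col4a2*, *Nid2* and *Lamb1*. Of 10 VEGF genes 8 were higher (0.57), but without replicate 1 there were 5 of 9 (0.11), and 4 of 9 against vein-like wells (−0.31). Without wells high in markers of other cells, 6 of 9 were higher than the mean (0.23). *Col4a1*, a chain of type IV collagen, stood at 1704, 1426, 349 and 233 CPM, against 233 to 741 in artery-like and 67.7 to 649 in vein-like sums. *Lama4*, a laminin chain of vascular basement membranes, stood at 318, 310, 307 and 388 CPM and lay above all vein-like plates (124 to 170 CPM).

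Of 20 other genes known from microvessels, which the rule did not use, 17 were higher than the mean of the other classes, with a median log2 difference of 0.53 (0.67 from artery-like and 0.49 from vein-like wells). With replicate 2 alone, 12 of 19 were higher (0.26), and against vein-like wells 9 of 19 (−0.10), so that the description against veins rested on replicate 1. Several of these genes, such as *Lpl*, *Fabp4*, *Aqp1*, *Cavin2*, *Esam* and *Trp53i11*, also belong to lists described above. The lists are therefore not separate results.

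**Figure D4:**
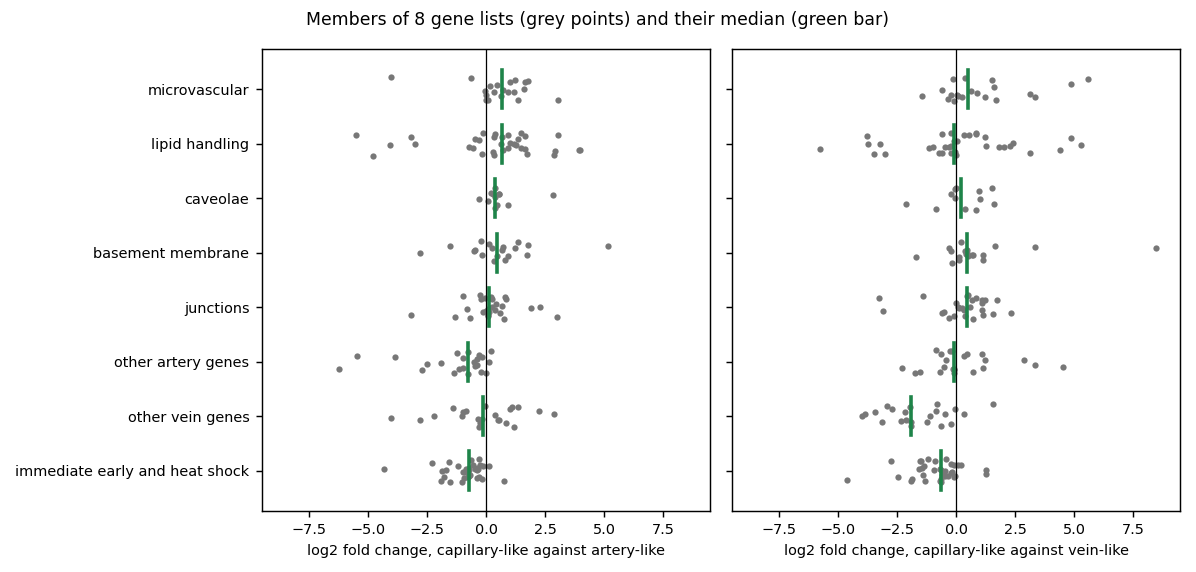
Log2 difference of each tested gene of 8 lists (grey points, with the median as a green bar), capillary-like minus artery-like and capillary-like minus vein-like wells. Genes of microvessels and of lipid handling lie above 0 at their medians against artery-like wells (0.67 and 0.69). Of 35 immediate early and stress genes, 33 were lower than in artery-like and 31 lower than in vein-like wells.

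Of the 40 genes above both classes, *Impdh1*, *Itpkb*, *Ifi203*, *Bambi* and *Bmp6* are named here after their values had been seen. Their separation was not set against random order. *Impdh1*, an enzyme of guanine nucleotide synthesis, stood at 333, 314, 296 and 236 CPM, against 73.9 to 138 in artery-like and 31.5 to 167 in vein-like sums (difference from their mean 1.49 ± 0.28, adjusted p = 0.949). *Itpkb*, an inositol trisphosphate kinase, stood at 192, 213, 287 and 187 CPM, against no more than 101 CPM in any other sum. *Bambi*, a pseudoreceptor that dampens TGF-beta and BMP signals, stood at 218, 215, 181 and 194 CPM, against 15.4 to 112 in artery-like and 44.9 to 150 in vein-like sums. These levels came from a part of the wells, since 48 of 119 and 12 of 49 held at least 100 CPM of *Impdh1*, 53 and 15 of *Itpkb*, and 43 and 11 of *Bambi*. *Ifi203*, an interferon-inducible gene, stood at 163, 215, 312 and 274 CPM, against 67.0 to 146 CPM in the other sums, but it belongs to a family of similar genes between which reads may be split. *Bmp6*, a ligand of the BMP family, stood at 11.3, 58.2, 12.2 and 21.4 CPM and at no more than 2.25 CPM elsewhere, with 75.9% of the reads of replicate 2 in 1 well.

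Other genes with the smallest p values in the higher direction are given next. *P2ry2*, a receptor for extracellular nucleotides, stood at 218, 151, 125 and 0.174 CPM, and *Akr1c19*, an aldo-keto reductase, at 25.9, 45.1, 0 and 60.2 CPM, with 53.5% and 92.2% of the reads of replicate 2 in 1 well. *Zfp672*, a zinc finger gene, stood at 22.9, 62.7, 39.1 and 191 CPM, against 2.75 to 12.5 in artery-like and 2.22 to 48.4 in vein-like sums. In replicate 2, 52.3% of its capillary-like reads came from 1 well. *Trp53i11*, a p53-induced gene, stood at 828, 806, 361 and 289 CPM against 48.1 to 388 in artery-like sums, of which plate 1A was above the capillary-like plates of replicate 2. *Bace2*, a protease, stood at 142, 130, 293 and 122 CPM against 2.20 to 86.9 in artery-like sums, but the vein-like sums were 160 to 497 CPM (log2 difference −0.71). Single wells held 77.2% of the artery-like reads of *Trp53i11* in replicate 2 and 96.05% of those of *Bace2*. Against vein-like wells, *Oaz2*, which regulates polyamines, stood at 690, 719, 330 and 426 CPM (75.2 to 241 in vein-like sums) and *Rsad2*, an interferon-stimulated gene, at 120, 118, 173 and 222 CPM (0.277 to 47.5). Both lay above all vein-like plates. Their log2 differences were 1.67 ± 0.28 and 2.31 ± 0.43, with adjusted p values of 0.557 and 0.702.

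Genes known from arteries that the rule did not use were mostly lower in capillary-like than in artery-like wells. Of 23 tested, 3 were higher (median −0.78, or −0.66 without replicate 2 and −1.42 without replicate 1), and *Dll4*, *Eln*, *Clu*, *Vegfc*, *Sat1* and *Cldn5* lay below all artery-like plates (6 of 23, against 1.44% of all genes). *Dll4*, the Notch ligand, stood at 555, 453, 400 and 465 CPM, between the artery-like plates (601 to 1272 CPM) and the vein-like plates (212 to 389 CPM), as *Cldn5* did. *Clu*, the chaperone clusterin, stood at 97.2, 80.5, 933 and 646 CPM, against 1133 to 2479 CPM in artery-like sums. *Eln*, elastin, stood at 116, 84.2, 91.9 and 130 CPM, below both the artery-like (152 to 458 CPM) and the vein-like plates (241 to 390 CPM). *Cxcl12*, a chemokine, stood at 2995, 3664, 2612 and 2404 CPM, overlapping the artery-like plates (2225 to 3293 CPM) and above all vein-like plates (872 to 1938 CPM). *Slc6a6*, a taurine transporter, stood at 203, 188, 162 and 229 CPM against 150 to 1252 in artery-like sums, of which plate 1A was the low one. In replicate 2, 71.2% of its capillary-like reads came from 1 well. *S100a4*, a calcium-binding protein, stood at 8.21, 29.6, 44.1 and 20.2 CPM against 152 to 308 CPM. *Gm42674* overlaps *S100a4* on the same strand and gave a like difference (−3.25 and −3.24), so the 2 cannot be told apart.

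Genes known from venules and from inflammation were mostly lower in capillary-like than in vein-like wells. Of 22 tested vein genes that the rule did not use, 2 were higher than in vein-like wells (median −1.92, or −2.24 without replicate 2 and −1.15 without replicate 1), and *Icam1*, *Cxcl1*, *Lbp*, *Lifr*, *Il6st*, *Ptgs1*, *Il6*, *Slco2a1* and *Ehd4* lay below all vein-like plates (9 of 22, against 2.17% of all genes). *Icam1*, the leukocyte adhesion molecule, stood at 129, 144, 51.3 and 131 CPM, against 998 to 1966 CPM in vein-like and 62.6 to 495 CPM in artery-like sums. The difference from vein-like wells was −3.46 ± 0.40 (SE, adjusted p = 0.248). *Il6*, a cytokine, stood at 6.84, 20.99, 94.1 and 29.2 CPM against 200 to 744 CPM. *Il6st*, the shared receptor chain of the interleukin-6 family, stood at 294, 278, 401 and 601 CPM against 1292 to 1791 CPM. *Nt5e*, which encodes the ectonucleotidase CD73, stood at 0.456, 0.640, 0.313 and 0.348 CPM against 129 to 281 CPM, and it was near 0 in artery-like sums as well (0 to 2.58 CPM). *Tmem252*, a transmembrane gene, stood at 15.3, 150, 43.4 and 5.39 CPM against 270 to 784 CPM. The vein-like wells were selected by *Sele* and *Selp*, induced by the same inflammatory signals, and how far that choice sets these differences was not tested.

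Immediate early and stress genes were low in capillary-like wells relative to both other classes. Of 35 such genes, which are also induced while tissue is dissociated, 33 were lower than the mean of the other classes (median log2 difference −0.70, against 0.05 over all genes), and none passed the test. *Nr4a1*, an immediate early nuclear receptor, stood at 336, 742, 1626 and 690 CPM, against 1075 to 3770 in artery-like and 1629 to 3460 in vein-like sums, and capillary-like wells were the lowest class on every plate. Its difference was −1.39 ± 0.16 (SE, adjusted p = 0.411). *Fosb*, an AP-1 subunit, stood at 85.7, 109, 55.6 and 124 CPM, below all plates of both classes (133 to 872 CPM). *Gem*, a small GTPase, stood at 15.7, 35.2, 17.2 and 20.9 CPM, below all artery-like (73.9 to 110 CPM) and vein-like plates (240 to 450 CPM), with a difference of −3.00 ± 0.35 (adjusted p = 0.411). *Ier3*, an early response gene, stood at 556, 1084, 781 and 444 CPM, against 569 to 1626 in artery-like and 1062 to 2304 in vein-like sums. Over 14 settings of the analysis, 29 to 35 of the genes were lower, with medians from −1.47 to −0.44.

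**Figure D5:**
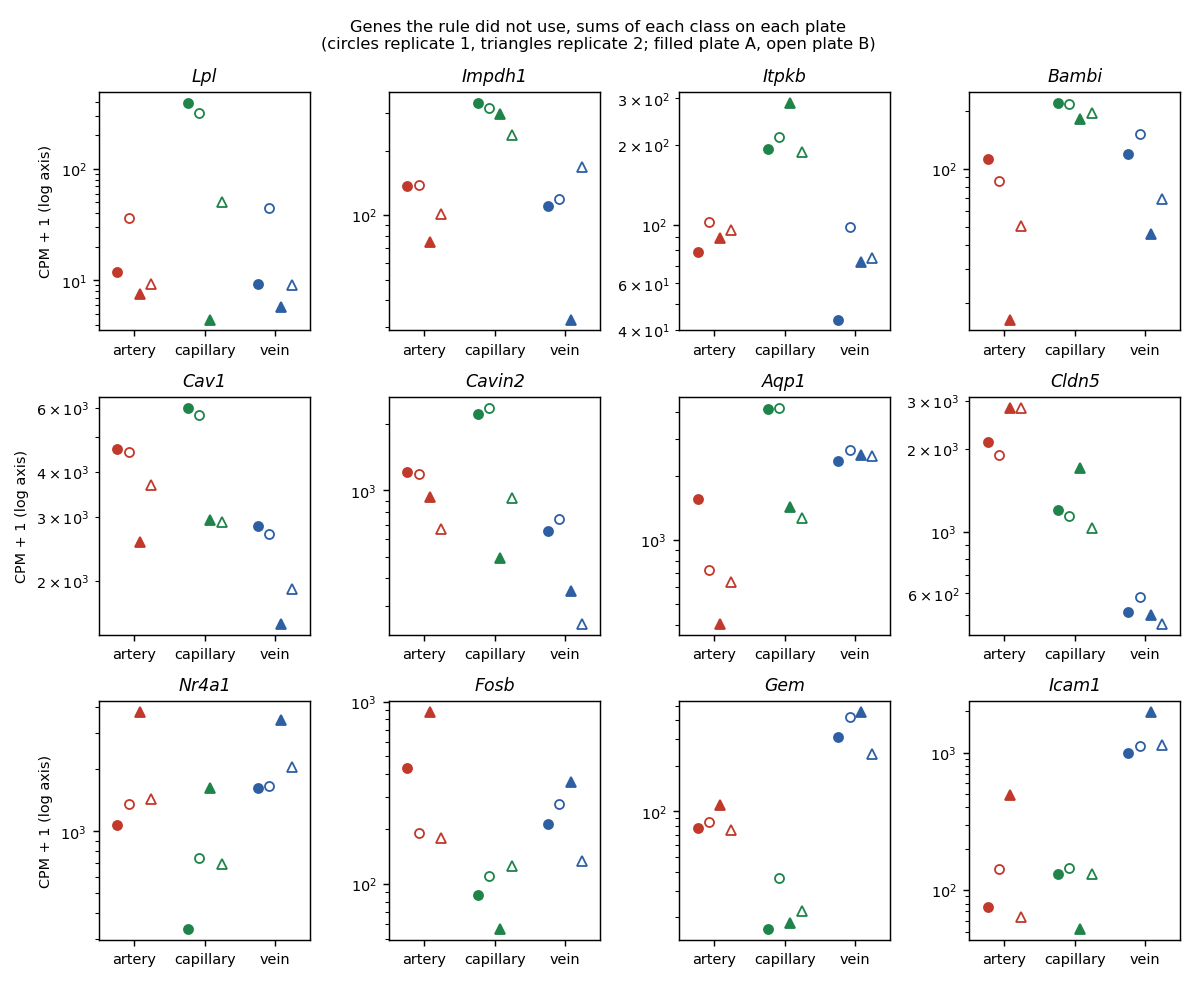
Level of 12 genes that did not choose the wells in each plate sum (vertical axis, CPM + 1 on a log axis), by class, with replicates shown by symbol. *Impdh1*, *Itpkb* and *Bambi* lie above, and *Fosb* and *Gem* below, all plates of both other classes, while *Cldn5* lies between them.

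Of the other lists, 21 of 38 endothelial transcription factors (median 0.04), 9 of 19 genes of glucose uptake and glycolysis (−0.03), 12 of 24 genes of BMP and TGF-beta signalling (−0.01), 9 of 20 genes of antigen presentation (−0.04), 12 of 23 genes of the cell cycle (0.18), 10 of 19 genes of coagulation (0.03), 19 of 29 interferon-stimulated genes (0.14) and 4 of 16 genes of nitric oxide, endothelin and prostacyclin (−0.63) were higher than the mean of the other classes. None of their members passed the test. By comparison, 21 of 29 interferon-stimulated genes were higher than in vein-like wells (0.53) and 12 of 29 were higher than in artery-like wells (−0.03). Several of these medians moved or turned with the replicate left out. Glucose genes stood at −0.41 without replicate 2 (5 of 19 higher) and at 0.16 without replicate 1 (15 of 17), transcription factors at 0.20 and −0.33, BMP and TGF-beta genes at 0.20 and −0.20, and nitric oxide, endothelin and prostacyclin genes at −0.46 and −0.20. Those of coagulation stood at −0.19 and −0.05, on the other side of 0 from the value with both replicates. Cell cycle genes stood at 0.13 and 0.05.

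Markers of other cells were read in the capillary-like wells, mostly those of pericytes and smooth muscle. The 16 mural markers summed to a median of 1065 CPM per capillary-like well of replicate 1 (104 to 10150) and 58.7 CPM in replicate 2 (0 to 7434), against 600 and 107 CPM in artery-like and 1054 and 267 CPM in vein-like wells. *Cnn1* was at 0 in both replicates. *Rgs5*, a pericyte gene, stood at 1637, 1289, 35 and 40.4 CPM on the 4 plates, against 321 and 976 in artery-like and 115 and 379 in vein-like plates of replicate 1 and 7.19 to 113 CPM in those of replicate 2. Without replicate 2, 11 of 13 tested mural markers were higher in capillary-like wells than the mean of the other classes (median 0.58), and without replicate 1, 2 of 10 (−0.97). Without the wells high in markers of other cells, 14 of 18 basement membrane genes were higher than the mean of the other classes (median 0.56). The part of mural reads in the levels of replicate 1, those of basement membrane genes included, was not tested further. The 12 fibroblast markers had medians of 139 and 15.7 CPM per well, against 111 and 21.99 CPM in artery-like and 74.6 and 23.2 CPM in vein-like wells. Without replicate 2, 9 of 11 tested fibroblast markers were higher than the mean of the other classes (median 1.22), and without replicate 1, 0 of 8 (−2.63). Their part in the levels of matrix genes in replicate 1 was not tested either. The 12 lymphatic markers had medians of 22.5 and 50.3 CPM, against 34.2 and 79.5 CPM in artery-like and 40.3 and 92.4 CPM in vein-like wells. In the sums, 7 of 10 tested lymphatic markers were higher than the mean of the other classes (median 0.51), and 8 of 10 higher than in vein-like wells (1.10). Without replicate 1, 6 of 10 were higher than the mean (1.15), and without replicate 2, 3 of 7 (−1.37). Immune and keratinocyte markers had medians of 0, with *Cd52* and *Tyrobp* at 0, but 2 wells of replicate 2 held more than 1000 CPM of keratinocyte markers, up to 30080 CPM, as did 1 well of replicate 1 (1410 CPM), and 1 well of replicate 1 held 1534 CPM of immune markers. In replicate 1, 1 well held 6773 CPM of Schwann cell and muscle markers, and 1 held 5585 CPM of erythrocyte and platelet markers. In 80 of the 168 wells, 65 of them in replicate 1, a list of mural, fibroblast, immune, keratinocyte, lymphatic, or Schwann and muscle markers passed 1000 CPM. In the remaining 54 and 34 wells, *Gpihbp1* stood at 2075 and 608 CPM, *Cd36* at 5711 and 861 CPM, *Car4* at 282 and 78.5 CPM, *Aqp7* at 915 and 146 CPM, *Cldn5* at 1045 and 1357 CPM and *Nr4a1* at 359 and 811 CPM. *Btnl9* and *Lpl* in replicate 2 stood lower in these wells, at 30.3 and 5.89 CPM, and *Rgs5* stood at 173 and 8.49 CPM.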

How the data were processed

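Ear dermal BECs in 4 plates were analysed. The authors aligned single 50-bp reads to mm10 (GRCm38) with TopHat2 2.1.1, and used SAMtools 0.1.18 to drop duplicates and Subread 1.4.6-p5 (featureCounts) to assign reads to genes, per the labels and the study's methods. The annotation release is not given in the sources used here. Each deposited value is a raw count for 1 gene in 1 well, neither normalized nor filtered. Since identical reads were removed and reads carry no molecular identifiers, counts of short abundant genes are limited. Of 46517 genes, 46005 were given symbols by GENCODE vM21, and 92 spike-ins were left out of totals.

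Wells were kept with at least 20000 reads, at most 8000 genes, reads for 2 or more of the BEC genes *Kdr*, *Cdh5* and *Pecam1*, and under 100 CPM for every gene among *Ptprc*, *Pdgfrb*, *Kcnj8*, *Lyve1* and *Prox1*. Kept wells held 20013 to 569668 reads (median 138443), and no pair of them held identical counts. No doublet caller was run, and doublets were limited by the number of genes and by the genes of other cells. Scores were mean z of log2(CPM + 1) within replicates. The artery markers were *Gja4*, *Gja5*, *Sema3g*, *Hey1*, *Sox17*, *Fbln5*, *Bmx* and *Efnb2*, and the vein markers *Selp*, *Sele*, *Ackr1*, *Lrg1*, *Ephb4*, *Il1r1*, *Vwf* and *Bst1*.

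Counts were summed per class and replicate and fitted with edgeR 4.0.16 (TMM, quasi-likelihood, replicate as a block, a minimum of 10 counts in 2 or more sums), with Benjamini-Hochberg adjustment over all genes. The SE beside a log2 difference is the size of that difference divided by the square root of the test's F statistic. It is therefore no measure of spread apart from the p value. The block follows the design, since the classes of a replicate share mice. Within a replicate, the deviations of pairs of sums correlated at 0.118, 0.139 and 0.109. Alternatives used DESeq2 1.42.0, limma 3.58.1, other filters, margins and sums, and single replicates, in R 4.3.3 and Python 3.11.15. The members and gene lists were chosen with earlier results of these data known. Genes named outside the markers and lists were at most 5 per direction and comparison with the smallest p, at least 20 CPM in the higher class and the same direction in both replicates. From lists, at most 4 were taken by level, and others named lay outside the ranges of other classes or were chosen after their values were seen. Coordinates are those of mm10.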

Additional observations from a re-analysis of the deposited data

Results flagged for a closer look

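Of 51 genes whose capillary-like plate sums were examined, 4 had a plate far from the other 3, by the gap to the nearest plate as a share of the range (Dixon's test), a criterion that chance meets in about 1 of 20 groups. *Icam1* stood at 51.3 CPM on plate 2A, against 129 to 144 CPM on the others (gap 0.846 of the range). *Slc27a3* stood at 1.60 CPM on plate 1A, against 9.22 to 10.6 CPM (0.844). *Bace2* stood at 293 CPM on plate 2A, against 122 to 142 CPM (0.885). *Lama4* stood at 388 CPM on plate 2B, against 307 to 318 CPM (0.864).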

How the results depend on the processing

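No gene passed edgeR's test in the reported setting. DESeq2's Wald test called 137 genes higher and 158 lower than the mean of the other classes, 173 and 170 against artery-like wells and 150 and 168 against vein-like wells. Without the low-count filter edgeR called 1 gene higher than the mean, 1 lower against artery-like wells, and 1 higher and 8 lower against vein-like wells. Without the replicate block 1 gene was lower against vein-like wells. With sums per plate, which treat plates of a pool as samples, 2 genes were higher and 5 lower than the mean, and 4 and 14 against vein-like wells. With limma on mean CPM, 2 were higher and 5 lower against vein-like wells. With wells thinned to 20000 reads, 8 were higher and 2 lower than the mean, and 7 and 12 against vein-like wells. With under 10 CPM of the genes of other cells, which left 5 capillary-like wells in replicate 1 and 36 in replicate 2, 2 were higher and 3 lower than the mean, 1 higher against artery-like wells, and 5 and 9 against vein-like wells. With all other kept wells as the comparator, 1 was lower. On the plates of a single replicate, calls ranged from 0 without replicate 1 to 11 higher and 21 lower than the mean, 1 lower against artery-like, and 17 higher and 29 lower against vein-like wells without replicate 2. The causes were not tested.

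Of 32 differences of 23 named genes, 30 were called under at least 1 alternative, most often those from vein-like wells of *Icam1* (6 of 14), *Gem* (5), *Nr4a1* and *Nt5e* (4 each), and 31 kept their direction under all alternatives run. Most of the 30 were called by DESeq2's Wald test alone, and 54 of 448 alternative results were calls. The difference of *Cldn5* from the mean of the other classes, 0.12, turned with limma, with thinned wells and with no margin. Counts of separated genes stayed within 1.5 times, except 53 below both classes with a margin of 0.5, and 73 above and 202 below vein-like wells with under 10 CPM of the genes of other cells, where the counts against artery-like wells could not be made. Both settings leave fewer wells.

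The share of capillary-like wells was 18.9% with a margin of 0.5, 39.5% with no margin, and 16.7% to 35.3% without a replicate. With z over all kept wells, replicate 1 held 174 and replicate 2 only 15 of 189 capillary-like wells, 134 of them also in the reported class. Of the markers left out of their own score, 5 to 7 of 8 were highest in capillary-like wells of both replicates. The capillary-like sums held 17441866 and 8503644 reads, and genes with fewer than 10 counts in all but 1 sum were not tested at this depth.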
